A study of Mus musculus with 9 samples.

Results

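A set of 10 genes of glucose uptake and breakdown was followed through mouse T-cell lymphomas that kept their telomeres either by alternative lengthening of telomeres (ALT) or by telomerase. They were the glucose transporters Slc2a1 and Slc2a3, the hexokinases Hk1 and Hk2, the phosphofructokinase subunits Pfkl and Pfkp, the aldolase Aldoa, the pyruvate kinase Pkm, the lactate dehydrogenase subunit Ldha and the pyruvate dehydrogenase kinase Pdk1. The choice took every probe set that the array annotation assigns to 1 of these 10 genes alone, which gave 27 probe sets of 45037 that are not controls, and 10 genes of 18193. A probe set is a group of short probes read together as 1 signal. Of the 27 probe sets 26 were bright enough to be tested; the other, 1421924_at of Slc2a3, was dim, at 7.11 to 17.6 in ALT tumours and 5.56 to 17.9 in telomerase tumours. A further probe set is annotated to Hk1 together with Rpl17 and related sequences and was not counted as Hk1.

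All tumours carried the genotype G3 Atm-/-TERT-ER, in which the DNA damage kinase Atm is absent and telomerase reverse transcriptase is fused to an oestrogen receptor domain that 4-hydroxytamoxifen (4-OHT) switches on. G3 is the label's own word and is not spelled out there. The 5 ALT tumours came from SCID recipient mice given vehicle and were labelled as using ALT at passage 4. The 3 telomerase tumours came from SCID recipient mice given 4-OHT and were labelled as using telomerase, also at passage 4. A single array held the parental tumour, labelled telomerase-positive, with SCID as recipient strain too. Vehicle and ALT always went together, as did 4-OHT and telomerase, so the drug and the telomere mechanism cannot be told apart. The labels do not say whether each tumour grew in its own mouse, and the p-values cover the spread between these arrays, which may be technical in part. SCID hosts lack mature B and T cells but keep their other cells, and a tumour sample can hold some of those.

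Glycolysis splits glucose into pyruvate in the cytosol. Transporters bring glucose in, hexokinase traps it as glucose 6-phosphate, phosphofructokinase commits it to the pathway, and pyruvate kinase ends it. Pyruvate can then be reduced to lactate by lactate dehydrogenase or enter mitochondria, where pyruvate dehydrogenase kinases hold back its oxidation. Dividing T cells and T-cell tumours are known for a high rate of glucose use with release of lactate, and several of the genes are textbook targets of the hypoxia-inducible factor Hif1 and of Myc.

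Of the 10 genes 3 passed the test, in different directions. Hk1 was higher in ALT tumours, and Pkm and Ldha were lower. The remaining 7 genes did not pass. The test was limma's moderated test on log2 of the signal plus 16, with Benjamini-Hochberg adjustment over 27022 tested probe sets and a threshold of 0.05. It called 3 of the 26 probe sets, 1 higher and 2 lower in ALT tumours, while over the whole array it called 18.8% of probe sets, 7.08% higher and 11.7% lower. The share among the 26 was thus no larger than over the array. By gene, each standing by its brightest probe set (the leading one), 3 of 10 were called, against 18.4% of 12375 genes. The ALT and telomerase tumours did not overlap at 4 of the 26 probe sets, against 25.4% of all tested probe sets. They were higher in ALT tumours at 2 (9.92% over the array) and lower at 2 (15.5%). The median log2 change of the 26 was -0.10, beside -0.02 over all tested probe sets.

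The start regions of the called genes are shown because each gene moved and because the start of a glycolysis gene is where Hif1 and Myc are known to bind. They come from RefSeq (GRCm38.p6), run 5′ to 3′ on the strand of the gene and cover the 250 bases before a listed start. For each gene the start with the most matches is printed, which was chosen after the matches were counted. Capitals mark ACGTG or GCGTG on either strand, the core of the hypoxia response element, in runs that join where matches overlap. The Hk1 region lies at chr10:62340422-62340671 on the minus strand, the Pkm region at chr9:59656977-59657226 on the plus strand and the Ldha region at chr7:46845554-46845803 on the plus strand.
Hk1: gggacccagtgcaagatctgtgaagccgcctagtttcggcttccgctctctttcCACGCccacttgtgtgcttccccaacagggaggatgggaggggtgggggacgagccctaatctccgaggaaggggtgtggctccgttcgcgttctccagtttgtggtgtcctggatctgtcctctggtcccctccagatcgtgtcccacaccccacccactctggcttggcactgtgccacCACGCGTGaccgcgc
Pkm: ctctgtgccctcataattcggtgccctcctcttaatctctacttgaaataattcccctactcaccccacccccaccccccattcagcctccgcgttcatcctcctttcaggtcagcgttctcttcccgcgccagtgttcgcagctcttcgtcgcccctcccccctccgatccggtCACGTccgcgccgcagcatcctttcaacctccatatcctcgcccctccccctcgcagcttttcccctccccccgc
Ldha: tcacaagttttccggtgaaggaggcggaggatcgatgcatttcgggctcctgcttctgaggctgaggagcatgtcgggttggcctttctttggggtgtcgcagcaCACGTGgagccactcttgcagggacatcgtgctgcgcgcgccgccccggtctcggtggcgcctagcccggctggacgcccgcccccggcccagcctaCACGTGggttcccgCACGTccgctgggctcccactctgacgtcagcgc
The Hk1 region held 2 such runs, the Pkm region 1 and the Ldha region 3. The Ldha region also held 2 matches to the E-box CACGTG, the palindrome that Myc and its partner Max bind, and these overlap the hypoxia core. Of 15 listed starts of 9 of the 10 genes, 11 held a core and 1 an E-box, against 38.6% and 6.02% of the 32851 listed starts of the genome. Several genes had more than 1 start, and some of the Aldoa regions overlap. The 15 are therefore not independent, and the shares were not tested against each other. Slc2a3 had no entry. A match describes the letters and not a bound site.

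Array medians lay between 39.8 and 43.8 and the ratio of 3′ to 5′ actin signal between 2 and 2.4, with ALT and telomerase ranges overlapping. The upper quartile of the signals was 194 to 201 in ALT arrays and 205 to 210 in telomerase arrays, without overlap, a gap that bears on small changes. Of 10 T-cell markers 9 were matched and all were above the signal filter; their summed signal was 21570 to 27300 in ALT tumours and 29540 to 31980 in telomerase tumours, without overlap. The lower sum was that of the Cd3 chains: Cd3e, Cd3d and Cd3g were called lower in ALT tumours (log2 changes -0.50, -0.39 and -0.82). Cd2 was called higher (0.94), Zap70 (0.20), Thy1 (0.04), Cd247 (-0.03), Cd5 (-0.04) and Cd28 (0.00) were not called, and the median of the 9 was -0.03. In bulk samples fewer cells of a type and less RNA per cell cannot be told apart. Transcripts of pancreatic acinar cells (10 matched markers, all above the filter) summed to 77820 or more in ALT tumours 1, 2 and 5 and to 104900 in telomerase tumour 3, and to 898.5 or less in the other arrays. Skeletal muscle transcripts (11 markers, all above the filter) summed to 250.4 to 347.3 in ALT tumours and 273.1 to 8986 in telomerase tumours, with 8986 in telomerase tumour 1 and 13690 in the parental tumour. Later fits with a muscle term used the sum of their log2 values. That sum was 54.65 to 57.26 in ALT tumours and 57.34 to 100.8 in telomerase tumours, without overlap. The muscle term thus partly stands for the group. Of erythroid markers 0 of 4 were above the filter. Macrophage markers (10 of 10 above the filter) summed to 6488 to 9951 in ALT tumours and 6448 to 9503 in telomerase tumours. B-cell markers (3 of 5 above the filter) summed to 859.8 to 1152 in ALT tumours and 788.9 to 821.3 in telomerase tumours, without overlap; 0 of the 3 tested was called (limma; 2 at an unadjusted p under 0.05), and Cd79a lay at 16.6 or less in these arrays.

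**Figure D1:**
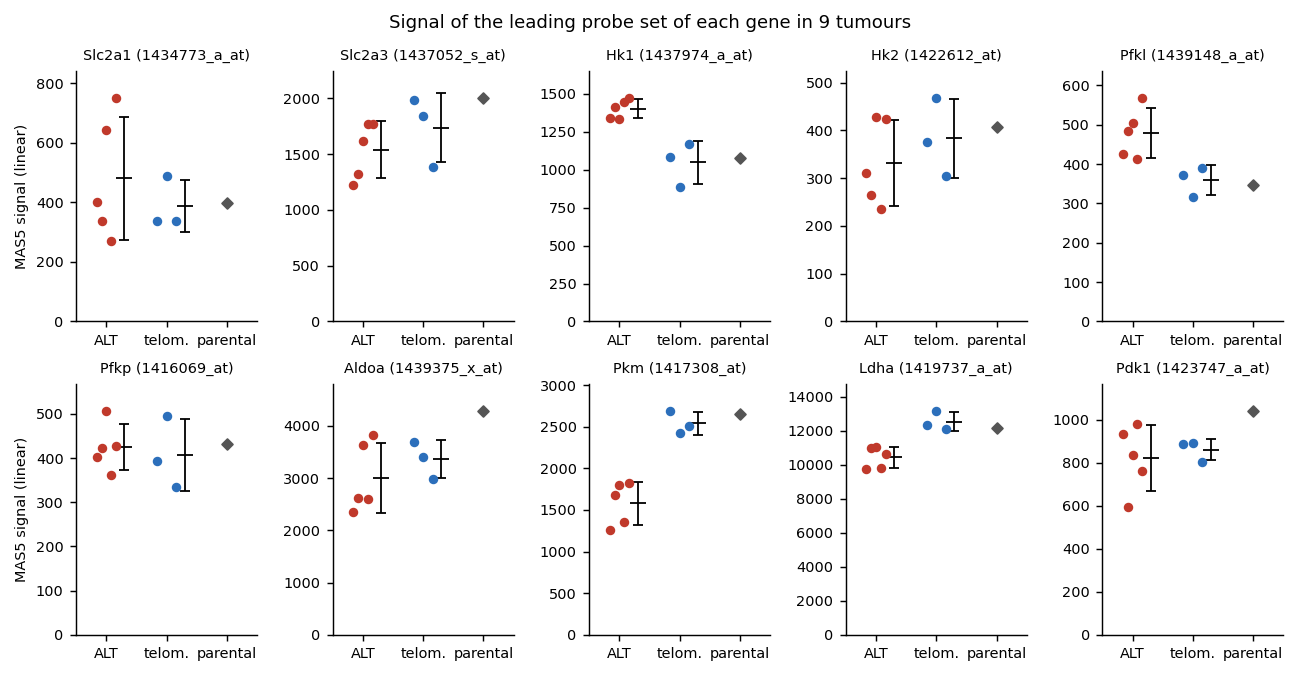
Signal (linear MAS5 units, each panel with its own axis from 0) of the leading probe set of each gene in every tumour, with ALT left, telomerase in the middle and the parental tumour right; bars show the mean and SD of a group. Hk1 lies higher in all 5 ALT tumours than in the 3 telomerase tumours, Pkm and Ldha lie lower in all 5, Pfkl lies higher in all 5 without passing the test, and the groups overlap for the other genes.

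Transcripts for glucose entry were not called at any of their tested probe sets. Slc2a1, the widely expressed transporter GLUT1, had signals of 400.06, 336, 642, 271 and 752 in ALT tumours 1 to 5, against 338, 489 and 339 in telomerase tumours and 399 in the parental tumour. ALT tumours 5 and 3 were the highest of all arrays and ALT tumour 4 the lowest, so the ALT group enclosed the telomerase group. Its highest ALT signal was 2.78 times its lowest, beside 1.45 times in telomerase tumours. The log2 change was 0.21 with a 95% interval of -0.45 to 0.88 (limma adjusted p = 0.676), an interval that holds large changes either way. Both other Slc2a1 probe sets also put ALT tumours 5 and 3 at the top and 4 at the bottom.

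Slc2a3, the high-affinity transporter GLUT3 of neurons and lymphocytes, had signals of 1220.2, 1325, 1615, 1771 and 1765 in ALT tumours, against 1983, 1839 and 1387 in telomerase tumours and 2006 in the parental tumour. The groups overlapped through telomerase tumour 3, and the log2 change was -0.17 (95% interval -0.51 to 0.17, limma adjusted p = 0.493). Both bright Slc2a3 probe sets are of a design whose probes may match other transcripts too, so their signals are uncertain as a measure of this gene alone. ALT tumour 4, the lowest for Slc2a1, came first for Slc2a3, nearly level with tumour 5 and followed by tumour 3.

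Hexokinase traps glucose in the cell. Hk1 (1437974_a_at), the constitutive form that binds mitochondria, had signals of 1344, 1412, 1331, 1443 and 1475 in ALT tumours, against 1087, 889 and 1168 in telomerase tumours and 1076.5 in the parental tumour. Every ALT tumour lay above every other array, and the 5 were close together. The means were 1401 ± 62.6 in ALT tumours (SD, n = 5) and 1048 ± 144 in telomerase tumours (SD, n = 3), a log2 change of 0.42 (SE 0.0978, 95% interval 0.20 to 0.64, limma adjusted p = 0.0135). Without telomerase tumour 2, the lowest, the change was 0.31 and the limma adjusted p 0.0545. With the mean of both Hk1 probe sets in place of the brighter one it was 0.26 (limma adjusted p = 0.179).

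The other Hk1 probe set, 1420901_a_at, was dim, at 45.2 ± 12.4 in ALT tumours (SD, n = 5) and 41.1 ± 9.96 in telomerase tumours (SD, n = 3), with a log2 change of 0.09. The probe set that lists Hk1 beside Rpl17 had a mean of 16553 in ALT tumours and 15654 in telomerase tumours, and its signal cannot be divided between those genes. Hk2, the inducible form typical of muscle and of many tumours, had signals of 311, 264, 429, 235 and 424 in ALT tumours, against 376, 469 and 304 in telomerase tumours and 408 in the parental tumour. Its groups overlapped (log2 change -0.21, 95% interval -0.69 to 0.26, limma adjusted p = 0.54). ALT tumours 3 and 5 were again the upper ones, as for Slc2a1.

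Phosphofructokinase is the main control point of the pathway and is built from liver (Pfkl), platelet (Pfkp) and muscle (Pfkm) type subunits. Pfkl (1439148_a_at) had signals of 426, 485, 506, 412 and 569 in ALT tumours, against 372, 317 and 390.4 in telomerase tumours and 346 in the parental tumour. Every ALT tumour lay above the others, yet the log2 change of 0.39 (95% interval 0.11 to 0.68) had a limma adjusted p of 0.055 and was not called. Pfkl was past the threshold in 7 of 26 other settings. Among them were median centring (limma adjusted p = 0.0282) and the parental tumour counted with the telomerase group (0.0195). Another was the looser threshold of 0.1, which its limma adjusted p of 0.055 meets without any other change. It was not past the threshold in the other 19, among them the terms for acinar (0.113) and muscle (0.18) transcripts and the fit without telomerase tumour 2 (0.202). The other Pfkl probe sets had positive changes of 0.25 each, with limma adjusted p of 0.224 and 0.386 and overlapping groups.

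Pfkp had signals of 403, 423, 507, 363 and 427 in ALT tumours, against 393, 495 and 334 in telomerase tumours and 431 in the parental tumour. The groups enclosed nearly the same range, and the log2 change was 0.07 (95% interval -0.25 to 0.38, limma adjusted p = 0.796). Its other probe sets were close to the filter, at 20.6 to 42.9 and 21.8 to 36.8 in ALT tumours and at 23.2 to 35.3 and 28.5 to 31.1 in telomerase tumours.

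Aldoa splits fructose 1,6-bisphosphate into triose phosphates. Its leading probe set had signals of 2344.5, 2625, 3639, 2601 and 3817 in ALT tumours, against 3702, 3411 and 2990.1 in telomerase tumours and 4289.6 in the parental tumour. The parental tumour was the highest array at all 5 Aldoa probe sets, and ALT tumours 5 and 3 again stood above the other ALT tumours. The log2 changes of the 5 probe sets ran from -0.30 to -0.19, with limma adjusted p between 0.208 and 0.526, so none was called. All 5 are of the design whose probes may match other transcripts, so their signals are uncertain as a measure of Aldoa alone. With a term for muscle transcripts, 4 of the 5 changes lay between -0.08 and -0.06 and that of 1433604_x_at was -0.21. Those transcripts were highest in telomerase tumour 1 and the parental tumour. Their log2 sums did not overlap between the groups, so the term partly stands for the group. The part of muscle RNA was not tested.

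Pkm (1417308_at), which makes pyruvate and ATP in the last step, showed the largest change of the 10 leading probe sets. Its signals were 1257, 1676, 1796, 1359 and 1821 in ALT tumours, against 2690.4, 2419 and 2505 in telomerase tumours and 2656 in the parental tumour. The highest ALT tumour stayed well below the lowest telomerase tumour. The means were 1582 ± 258 in ALT tumours (SD, n = 5) and 2538 ± 139 in telomerase tumours (SD, n = 3), a ratio of 0.623 and a log2 change of -0.69 (SE 0.128, 95% interval -0.97 to -0.41, limma adjusted p = 0.00438). It passed whichever single array was left out. Among the arrays without pancreatic transcripts the change was -0.70 (limma adjusted p = 0.0283), and among those with them -0.67 (limma adjusted p = 0.16, with 1 telomerase tumour, assumed to vary like the ALT tumours). A single probe set stands for Pkm, and the splice forms PKM1 and PKM2 were not separated here.

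Ldha (1419737_a_at), which turns pyruvate into lactate, had signals of 9739, 10955, 11035, 9808 and 10608 in ALT tumours, against 12342, 13171 and 12089 in telomerase tumours and 12171 in the parental tumour. All ALT tumours lay below all others, by a small margin. The means were 10429 ± 620.15 in ALT tumours (SD, n = 5) and 12534 ± 566 in telomerase tumours (SD, n = 3), a log2 change of -0.27 (SE 0.0557, 95% interval -0.39 to -0.14, limma adjusted p = 0.00835). The call did not hold under median centring (-0.20, limma adjusted p = 0.0549), without the intensity trend of the variance (-0.27, 0.0797) or with a term for muscle transcripts (-0.27, 0.0553); in those last settings the size of the change was as large. Control probe sets of Gapdh, the enzyme of the middle of the pathway, were lower in ALT tumours as well. Their log2 changes were -0.19, -0.24 and -0.24 with no overlap (exact two-sided permutation p = 0.0357 each, the smallest that 5 against 3 allows). They were looked at after the members' values were seen. Of the T-cell markers the Cd3 chains were lower in ALT tumours too, while Cd2 was higher and the others were not called; whether T-cell content moved with Pkm and Ldha was not tested.

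Pdk1 phosphorylates pyruvate dehydrogenase and so slows the entry of pyruvate into the citric acid cycle. Its leading probe set had signals of 932, 594, 834, 981 and 762 in ALT tumours, against 886, 894 and 803 in telomerase tumours and 1041 in the parental tumour. ALT tumours lay on both sides of the telomerase tumours and varied more. The log2 change was -0.09 (95% interval -0.42 to 0.25, limma adjusted p = 0.739), and the 4 Pdk1 probe sets gave changes between -0.20 and -0.07.

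**Figure D2:**
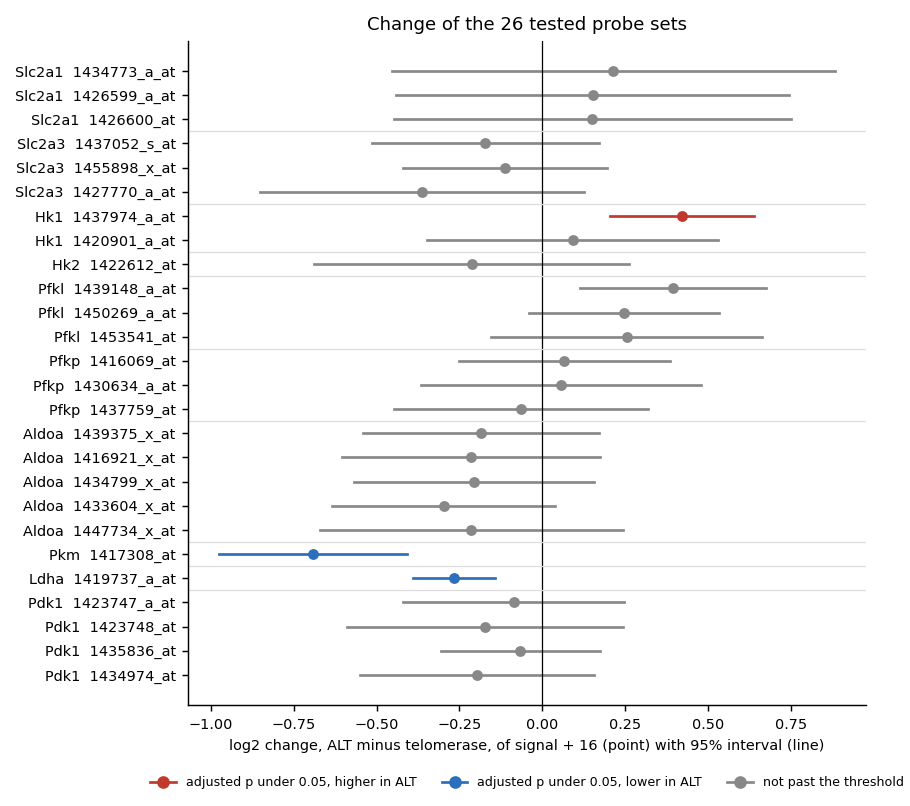
Log2 change, ALT minus telomerase tumours, with its 95% interval for each of the 26 tested probe sets, grouped by gene; the vertical line marks no change, red marks probe sets called higher in ALT tumours, blue those called lower and grey those not past the threshold. Pkm, Ldha and the leading Hk1 probe set are the 3 that passed, at -0.69, -0.27 and 0.42.

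Probe sets of the same gene could be set against each other within an array, which asks whether they changed by the same amount. For 7 genes more than 1 probe set was tested, giving 16 pairs with the leading probe set, and 0 of 16 differed at an adjusted p under 0.05 (limma; 0 at an unadjusted p under 0.05), against 18.6% of 9987 such pairs on the array (7.81% with the dimmer probe set the higher one in ALT tumours relative to the leading one, 10.7% with it the lower one). At 6 of the 7 genes all tested probe sets had the same sign, the exception being Pfkp. The widest gap was that of Hk1, where the dim probe set changed by 0.33 less than the bright one (log2 difference -0.33, 95% interval -0.78 to 0.12). That interval includes both no difference and a difference as large as the whole change of Hk1, so the pair does not show that the Hk1 probe sets act alike.

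**Figure D3:**
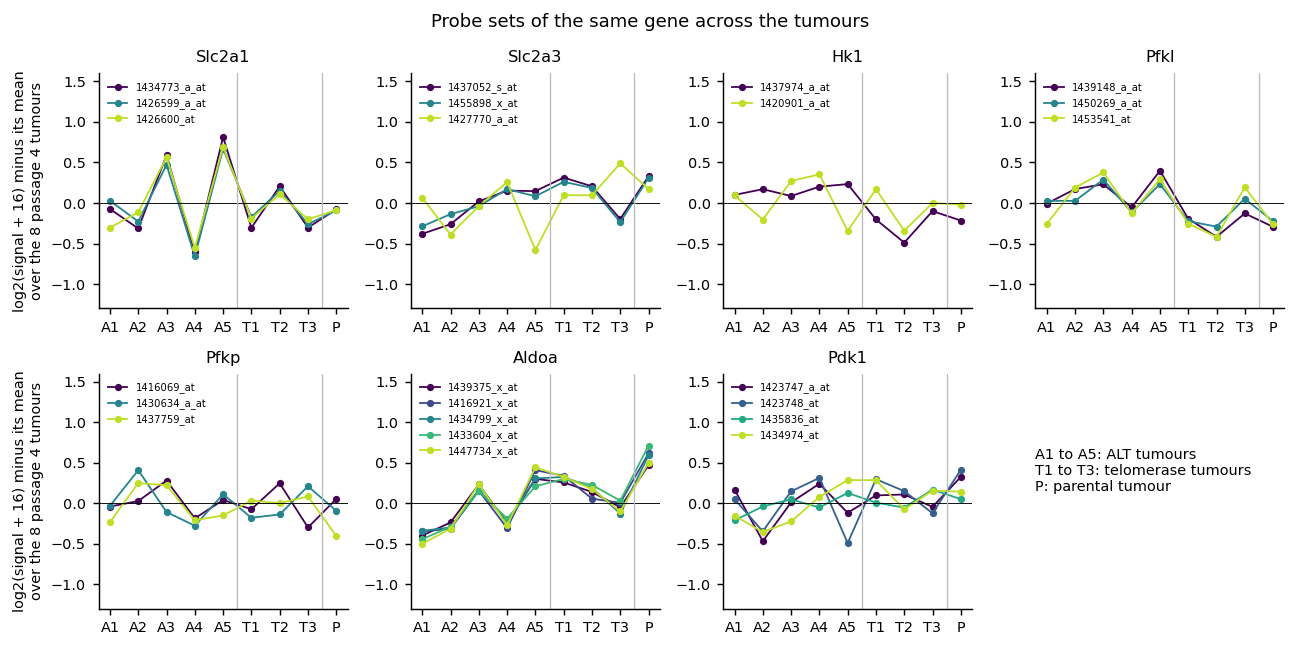
Log2 of the signal plus 16, minus its mean over the 8 passage 4 tumours, of every tested probe set (1 line each) for the 7 genes that have more than 1, with ALT tumours (A) left, telomerase tumours (T) in the middle and the parental tumour (P) right. The 3 Slc2a1 and the 5 Aldoa lines run nearly parallel, with ALT tumours 3 and 5 above ALT tumour 4.

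Alternative forms of the same step were compared by the difference of their log2 signals within each tumour, a comparison chosen after the values were seen and made for 3 pairs. The change of Hk1 exceeded that of Hk2 by 0.64 (exact two-sided permutation p = 0.143, 0.321 after Benjamini-Hochberg adjustment over the 3 pairs). The change of Pfkl exceeded that of Pfkp by 0.33 (exact permutation p = 0.214, adjusted 0.321), and that of Slc2a1 exceeded that of Slc2a3 by 0.39 (exact permutation p = 0.357, adjusted 0.357). With 56 splits of the tumours the smallest possible p is 0.0357. After adjustment no pair could come under 0.05 unless all 3 separated fully, so the adjusted test could hardly pass. None of the pairs was shown to differ or to change alike. The call of Hk1 alone does not set it apart from Hk2.

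ALT tumours 3 and 5 were the highest ALT tumours at all Slc2a1, Pfkl and Aldoa probe sets and at the leading probe sets of Hk2, Pfkp and Pkm, while at the leading probe sets of Hk1, Ldha, Slc2a3 and Pdk1 the order was another. Tumour 5 had pancreatic transcripts at 158800 and tumour 3 at 898.5, so the pair did not share that feature. The summed macrophage markers were highest of the ALT tumours in these, at 9951 in tumour 5 and 9238 in tumour 3. Among them Lyz2 was highest there too, at 5751 in tumour 3 and 5535 in tumour 5. Csf1r, C1qa, C1qb, C1qc and Mrc1 were lowest in tumour 3. The part of such cells in the order was not tested. The parental tumour lay nearer to the telomerase mean than to the ALT mean at 24 of the 26 tested probe sets. Several of these stand for the same gene, and the share over the whole array is not given here. The count is therefore not shown to be particular to these genes. The parental tumour is a single array, so its position has no error.

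The rest of the pathway was described from lists of known genes, each gene standing by its leading probe set and read beside the 18.4% of all genes called (7.82% higher and 10.5% lower in ALT tumours). Over 6 lists, 10 of 68 tested genes were called, 6 higher and 4 lower, and the count was 6 without any 1 of the telomerase tumours. Among the other glycolysis enzymes 1 of 11 was called. Pfkm, the muscle type subunit of phosphofructokinase, averaged 391 ± 31.4 in ALT tumours (SD, n = 5) and 303 ± 21.7 in telomerase tumours (SD, n = 3), a log2 change of 0.35 (limma adjusted p = 0.0393). The parental tumour had 395, near the ALT mean, and the muscle-rich telomerase tumour 1 had the highest of the telomerase signals, 328; the call was lost in 15 of 26 other settings. The list's median log2 change was 0.15, beside -0.01 over all genes.

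The tested enzymes of the middle of the pathway were not called. Gapdh was not among them, and its control probe sets were lower in ALT tumours, as given above. Tpi1, which interconverts the triose phosphates, had a log2 change of 0.22 (limma adjusted p = 0.182), Pgk1, which makes the first ATP, -0.05 (0.693) and the phosphoglycerate mutase Pgam1 0.07 (0.688). Eno1 and Gpi1 had no probe set assigned to them alone and were not analysed here. Of other sugar and lactate transporters 0 of 12 passed the limma test, with 1 at an unadjusted p under 0.05, the lactate exporter Slc16a1, whose groups did not overlap (log2 change 0.18, limma adjusted p = 0.109).

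**Figure D4:**
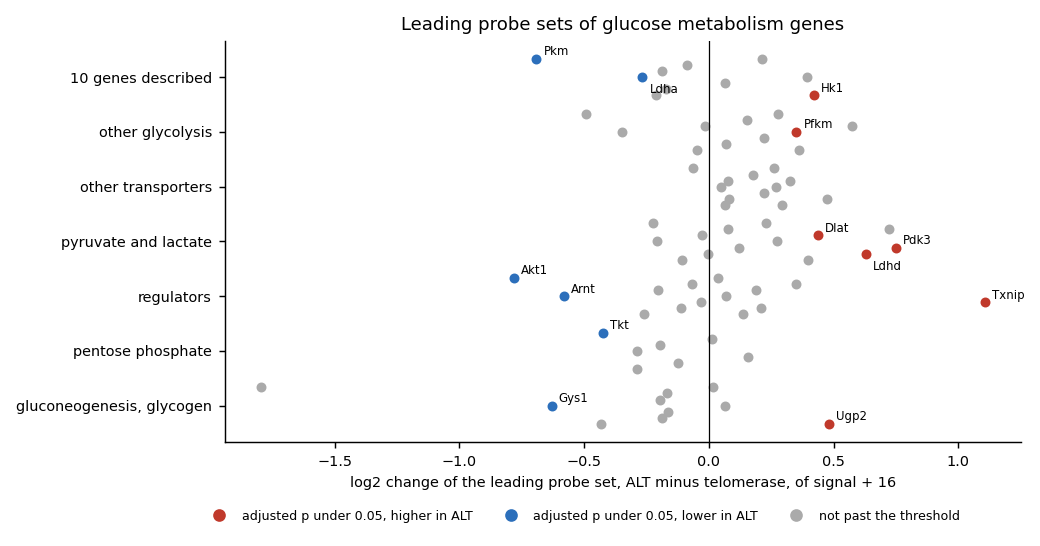
Log2 change, ALT minus telomerase tumours, of the leading probe set of each tested gene of the pathway lists and of the 10 genes themselves, 1 row per list; red and blue points, labelled, are called higher and lower, and the height within a row has no meaning. Called genes lie on both sides of 0, from Akt1 at -0.78 to Txnip at 1.11, and the grey point at -1.80 is Fbp1.

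Around pyruvate 3 of 14 genes were called, all higher in ALT tumours at their leading probe sets, and the list's median was 0.17. Dimmer probe sets of uncalled genes went both ways. Pdhb 1448214_at was called lower (-0.80, limma adjusted p = 0.00789). Pdha1 1449137_at (0.70, 0.00517) and Dld 1433263_at (0.54, 0.027) were called higher. Pdk3, another kinase that holds back pyruvate dehydrogenase, averaged 329 ± 45.2 in ALT tumours (SD, n = 5) and 188 ± 22.1 in telomerase tumours (SD, n = 3), a log2 change of 0.75 with no overlap (limma adjusted p = 0.00339). This differs from Pdk1, which was not called, though the difference between them was not tested. Ldhd, which oxidises D-lactate in mitochondria, changed by 0.63 (limma adjusted p = 0.0426) and at its other probe set by 0.79 (0.00949). The groups overlapped at the leading Ldhd probe set, and its call was lost in 13 of 26 other settings. Dlat, a core subunit of pyruvate dehydrogenase, was higher at its leading probe set (0.44, limma adjusted p = 0.0322) and at another (0.45), but lower at the remaining one, 1452005_at (-0.81, limma adjusted p = 0.000765), so the gene has no single direction; the call at the leading probe set was lost in 12 of 26 other settings. The heart type lactate dehydrogenase subunit Ldhb had 0.40 (limma adjusted p = 0.216).

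Among regulators of glycolysis 3 of 14 were called. Txnip, an inhibitor of glucose uptake that glucose itself induces, averaged 3447 ± 991 in ALT tumours (SD, n = 5) and 1600.2 ± 538 in telomerase tumours (SD, n = 3), with overlap between the groups and a log2 change of 1.11 (limma adjusted p = 0.0201). Without telomerase tumour 2 it was 0.80 (limma adjusted p = 0.0843). Akt1, a kinase that promotes glucose uptake, averaged 948 ± 118 in ALT tumours and 1642 ± 232 in telomerase tumours, a log2 change of -0.78 (limma adjusted p = 0.00218). Another Akt1 probe set was called lower too (-0.97), while 1440950_at was not called (-0.005). Arnt, the partner of Hif1a in the hypoxia-inducible factor, changed by -0.58 (limma adjusted p = 0.00874), whereas Hif1a had 0.04 (0.873) and Myc -0.21 (0.344). Another Arnt probe set was called lower too (-0.55), while 1425064_at (-0.48) and 1449696_at (0.09) were not called. The dim Arnt probe set 1421721_a_at, not tested, was higher in ALT tumours without overlap.

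Side branches gave 1 call of 7 in the pentose phosphate pathway and 2 of 10 in gluconeogenesis and glycogen. Transketolase (Tkt), which links pentoses back to glycolysis, averaged 7137 ± 505 in ALT tumours (SD, n = 5) and 9573 ± 332 in telomerase tumours (SD, n = 3), a log2 change of -0.43 (limma adjusted p = 0.00125). Ugp2, which makes the UDP-glucose used for glycogen, changed by 0.48 (limma adjusted p = 0.0112), and Gys1, the glycogen synthase of muscle and most tissues, by -0.63 (0.0182). At other Ugp2 probe sets the change was 0.41 and 0.44, both called, and -0.003 and -0.17, neither called. Fbp1, which reverses the phosphofructokinase step and was picked after its value was seen, had a log2 change of -1.80 but was not called (limma adjusted p = 0.0765). Of hypoxia-responsive genes other than the 10 themselves 5 of 18 were called, 2 higher and 3 lower. Over all genes 18.4% were called, 7.82% higher and 10.5% lower. Pfkfb3, Pfkfb4 and Slc16a3, not called, also belong to the transporter and regulator lists. Ndrg1 and P4ha2, a collagen prolyl hydroxylase subunit, each fell by 1.28 on the log2 scale (limma adjusted p = 0.000913 and 0.00176), and the carbonic anhydrase Car9 changed by -0.66 (0.0113). The mitophagy receptor Bnip3 changed by 0.67 (limma adjusted p = 0.0304) and Higd1a, a mitochondrial protein, by 0.30 (0.0433). The called hypoxia-responsive genes lay on both sides of 0, as did the called genes among the 10 and those over the whole array.

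Some genes elsewhere on the array followed the 3 called genes closely over the 9 arrays, which is a description without a test since the arrays share their groups. For Pkm these were Hsd3b7 (Pearson r = 0.988), Cks2 (0.977) and Cyth2 (0.977). For Ldha they were Eef1a1 (0.985), Ccr7 (0.978) and Psmc3 (0.978), and for Hk1 Ptpn21 (0.983), Rora (0.965) and Pyroxd2 (0.964).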

How the data were processed

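Total RNA of 9 lymphomas was biotin-labelled and hybridised to Affymetrix mouse arrays. The deposited table holds 1 intensity per probe set and array on a linear scale, which the authors made with MAS5 according to the submitters' processing notes. Its version and scaling target are not given in the sources. The table lists no detection calls, which leaves the background level unknown. Precision is limited by the number of arrays. The labels gave every array's group.

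Of 45101 probe sets, 64 were controls, 34945 others named 1 gene, 932 several and 9160 none in the array annotation. Values were taken as log2 of the signal plus 16, which understates the change of dim probe sets. Those whose mean over the 9 arrays lay in the lowest 40% (below 25.27) were not tested, which left 27022 of the probe sets. The 5 ALT arrays were compared with the 3 telomerase arrays in limma 3.58.1 (R 4.3.3) with an intensity trend, two-sided, Benjamini-Hochberg adjustment over all tested probe sets and a threshold of 0.05. The parental array was described only. Pairs of probe sets were tested in the same way on their difference within an array, over 9987 pairs of 5712 genes. On simulated data the probe set test recovered 10.4%, 65.7% and 93.9% of log2 changes of 0.5, 1 and 2, with 6 false calls among 27022. The pair test recovered 10.4%, 50.7% and 97%, with 8 among 9987. Far fewer probe sets were changed in the simulation than were called in the data, so these shares do not carry over to the data.

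The text names all 10 genes; up to 5 called genes of each other list with the smallest p; Gapdh, Pgk1, Tpi1, Eno1, Gpi1, Pgam1, Ldhb and Slc16a1 always; and, for called members, the 3 genes with the highest correlation. Hif1a, Myc, Pdhb, Pdha1, Dld and single further probe sets were picked after their values were seen. The same holds for the Gapdh control probe sets and the pairs of alternative enzymes. The members and lists were chosen with earlier results of these data known. Other settings changed the filter (none or 60%), the pseudocount (1 or 64), the scaling, the summary per gene, the variance model, the threshold, the arrays used, replicate numbers as a block, and terms for acinar or muscle transcripts. Start regions were searched with Python 3.11.15 and pandas 2.3.3, and plots drawn with matplotlib 3.10.9.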

Additional observations from a re-analysis of the deposited data

How the results depend on the processing

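No called gene of the 10 changed direction in any setting. The count of member probe sets called, 3 as reported, was 1 with replicate numbers as a block, 1 with a term for muscle transcripts, 0 at a log2 change of at least 1 (4 at an unadjusted p under 0.05) and 0 within the arrays with pancreatic transcripts (1 at an unadjusted p under 0.05, limma in each case); leaving out 1 array gave 2 to 4. Over the array the count of 5076 became 2169 and 2083 at gene level (highest and mean probe set, over fewer features), 2699 with the replicate block, 1091 at a log2 change of at least 1, 2149 with the muscle term, 2396 within the arrays without and 841 within those with pancreatic transcripts, and 2857 to 4853 with 1 array left out, lowest without telomerase tumour 1. The split of 1912 higher and 3164 lower became 2643 and 2416 under median centring. The count of 10 pathway genes called became 6 with the replicate block, 1 at a log2 change of at least 1, 4 with the muscle term and 0 within the arrays with pancreatic transcripts (8 at an unadjusted p under 0.05); leaving out 1 array gave 6 to 9. The settings for pathway genes other than no filter, pseudocount, scaling, block and left-out arrays were chosen after seeing the data, as were scaling, tissue terms, log2 size and the arrays with pancreatic transcripts for the probe set pairs. A log2 change of at least 1 can only remove calls, and no member probe set could reach it, the largest change being -0.69 (Pkm). With the replicate block ALT tumours 4 and 5 stood alone in their blocks. They therefore added nothing to the comparison of the groups. The muscle term partly stands for the group, since its sums did not overlap between the groups. Where a count otherwise fell with no fewer arrays or features, the cause was not tested. The pairs of probe sets gave 0 calls in each setting. Replicate numbers were not taken to pair the tumours, since no source used here says what a number marks. The deviations of same-numbered tumours correlated at -0.287, -0.374 and -0.537. Each such pair joined an array with pancreatic transcripts to an array without them. Every combination of that kind correlated negatively, whatever its numbers. These correlations therefore cannot tell whether the numbers pair the tumours. With the replicate block Pkm changed by -0.70 (adjusted p = 0.0315), Ldha by -0.25 (0.0576) and Hk1 by 0.38 (0.127). Within the arrays without pancreatic transcripts Hk1 changed by 0.49 (0.0761) and Ldha by -0.29 (0.0465). In simulated data most log2 changes of 0.5 went uncalled, but far fewer probe sets were changed there than were called here. That made the adjusted threshold stricter, and smaller changes, such as that of Ldha, were called in these data. The simulation thus does not give the share missed here. Intervals of several uncalled genes were wide, so uncalled genes are not shown to be unchanged.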
